A study of Mus musculus with 39 samples.

Results

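The heat shock chaperone genes described here are Hspa1a, Hspa1b, Hspa8, Hsp90aa1, Hspb1, Hsph1, Dnajb1, Hspe1, Hspd1 and Bag3. They were taken by gene symbol from the deposited FPKM tables, where all 10 were listed for every library, some at 0 FPKM, among 30671 genes listed in at least 1 table. C57Bl6/J mice of 3 arms gave RNA from liver, from skeletal muscle and from white fat (white adipose tissue, WAT). PCOS + roxadustat mice received letrozole from before puberty, which models polycystic ovary syndrome, and then roxadustat by mouth for 6 weeks from an age of 12 weeks. PCOS + vehicle mice received the same letrozole model and only the oral vehicle over those weeks. Control + vehicle mice had no letrozole model and received the vehicle. Roxadustat is an inhibitor of HIF prolyl hydroxylases, the oxygen-dependent enzymes through which hypoxia-inducible factor is degraded. In bulk tissue, a lower level can come from fewer cells of a type or from less RNA per cell, and these cannot be told apart.

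Chaperones bind unfolded stretches of other proteins and help them to fold, to assemble or to be handed on for degradation. HSP70 proteins work in a cycle of ATP binding and release in which J-domain partners such as the product of Dnajb1 start ATP hydrolysis and nucleotide exchange factors such as those of Hsph1 and Bag3 reset the cycle. When unfolded protein builds up, heat shock factor 1 binds arrays of a short repeat in front of these genes, the heat shock element, and raises the inducible members far above their resting level, while Hspa8 is made in nearly all cells at all times. Muscle keeps a standing supply of small heat shock proteins and of Bag3, which guard the contractile apparatus.

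The promoter windows of the members are shown first because the group is defined in textbooks by its heat shock elements. The windows came from RefSeq on GRCm38.p6 and ran from 250 bases before to 50 bases after each start site, and the 250 upstream bases were searched on both strands for 3 alternating units of the element, written GAANNTTCNNGAA or TTCNNGAANNTTC. Of the members, 8 had a window in the RefSeq table and Hspa8 and Hsp90aa1 did not. Only Hspd1 and Hspe1 of those 8 held the 3-unit motif, against 139 of 27025 genes (0.514%) and 153 of all 32851 windows (0.466%). Both windows hold the same bases of chromosome 1, because Hspd1 and Hspe1 lie head to head, and in 1 of the 2 Hspd1 windows and in the Hspe1 window 2 overlapping matches make a run of TTC and GAA units marked in capitals. Only 10 of all windows (0.0304%) held 2 or more such matches. The first line below gives chr1:55088039-55088096 on the minus strand, 144 and 139 bases before the Hspd1 start site, and the second the same bases on the plus strand, 89 and 84 bases before the Hspe1 start site.
Hspd1: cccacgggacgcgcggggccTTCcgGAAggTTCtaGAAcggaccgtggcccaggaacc
Hspe1: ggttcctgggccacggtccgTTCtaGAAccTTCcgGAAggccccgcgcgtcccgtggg
The 2-unit form, GAANNTTC or TTCNNGAA, was in the windows of 6 members, and since every 3-unit match contains it, this count includes Hspd1 and Hspe1. It was in 4218 of all windows (12.8%) and in a window of 3932 of 27025 genes (14.5%), so a match of that length is common. The lines below show it in capitals for Hspa1a (chr17:34972233-34972280, minus strand), Hspa1b (chr17:34959315-34959362, minus strand), Hspb1 (chr5:135887782-135887849, plus strand) and Hsph1 (chr5:149636342-149636389, minus strand). It starts 104 bases before the start sites of Hspa1a and Hspa1b, 117 and 97 bases before that of Hspb1, and 54 and 33 bases before the 2 start sites of Hsph1.
Hspa1a: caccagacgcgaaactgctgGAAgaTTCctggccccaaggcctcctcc
Hspa1b: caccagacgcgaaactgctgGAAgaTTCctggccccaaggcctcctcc
Hspb1: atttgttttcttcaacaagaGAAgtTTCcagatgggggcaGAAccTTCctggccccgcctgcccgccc
Hsph1: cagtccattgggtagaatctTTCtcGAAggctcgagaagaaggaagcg
The shown stretches of Hspa1a and Hspa1b are letter for letter the same, and 247 of the 250 bases before their start sites were identical. Neither form was found in the windows of Dnajb1 and Bag3. A match describes the letters of the window and is not a measured binding site.

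The study's own coordinates are on the newer mouse build mm39, so they are given apart from those windows. Hspa1a (chr17:35188166-35191132, minus strand) and Hspa1b (chr17:35175412-35178214, minus strand) are neighbours. Hspe1 (chr1:55127291-55130466, plus strand) and Hspd1 (chr1:55116994-55127402, minus strand) overlap by 112 bases at their starts. Hspb1 (chr5:135916773-135918417, plus strand) and Hsph1 (chr5:149537752-149559841, minus strand) share chromosome 5. Hspa8 lies at chr9:40712280-40721383 on the plus strand and Hsp90aa1 at chr12:110657039-110669162 on the minus strand. Dnajb1 lies at chr8:84334822-84339282 and Bag3 at chr7:128125340-128148705, both on the plus strand. All 10 are annotated as protein-coding.

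The series held 39 libraries from 18 mice, 9 of which gave all 3 tissues. Liver and muscle each had 4 mice in every arm, and WAT had 5 PCOS + roxadustat, 6 PCOS + vehicle and 4 control + vehicle mice. Reads assigned to genes, recovered from the FPKM values, were between 12389970 and 19639244 per library. The 8 hepatocyte markers summed to 57270 to 84060 FPKM in liver, and the 8 skeletal muscle markers to 67560 to 103600 FPKM in muscle. The 8 adipocyte markers summed to 5985 to 41640 FPKM in WAT, so each tissue carried its defining markers. The muscle library of PCOS + vehicle mouse 773 stood apart with 136.9 FPKM of summed hepatocyte markers, against at most 12.9 FPKM in the other 11 muscle libraries. WAT RNA was extracted with another kit than liver and muscle RNA, so kit and tissue cannot be told apart.

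By FPKM, which divides by the deposited gene length, the constitutive HSP70 gene Hspa8 had the highest median of the 10 members in each tissue. It had 131.0 FPKM in WAT, 271.5 FPKM in muscle and 278.7 FPKM in liver. The inducible pair Hspa1a and Hspa1b stood at the other end, with medians of 0.771 and 2.20 FPKM in WAT, 1.52 and 1.26 FPKM in muscle, and 0.0921 and 1.45 FPKM in liver. Between these ends the order differed by tissue. In WAT, Hspd1 (73.0 FPKM), Hspb1 (70.4), Hsp90aa1 (45.8), Hspe1 (39.3), Bag3 (18.5), Dnajb1 (7.75) and Hsph1 (2.55) followed Hspa8. In muscle the order after Hspa8 was Hspb1 (160.4 FPKM), Hspd1 (86.5), Bag3 (63.1), Hspe1 (39.4), Hsph1 (18), Hsp90aa1 (15.3) and Dnajb1 (2.20). In liver it was Hspe1 (76.4 FPKM), Hspd1 (75.0), Hsp90aa1 (32.4), Hspb1 (28.5), Bag3 (8.79), Dnajb1 (6.43) and Hsph1 (3.20). Neighbouring medians such as those of Hspd1 and Hspb1 in WAT, Hsph1 and Hsp90aa1 in muscle, and Hspe1 and Hspd1 or Hsp90aa1 and Hspb1 in liver lay within the spread of the libraries. The order between genes also depends on the length used. The deposited length was 7266 bases for Hsph1, 4301 for Hspa8 and 1474 for Hspe1. Their longest protein-coding transcripts in GENCODE M21 had 3802, 2394 and 774 bases, while for Bag3 both lengths were 2562 bases.

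**Figure D1:**
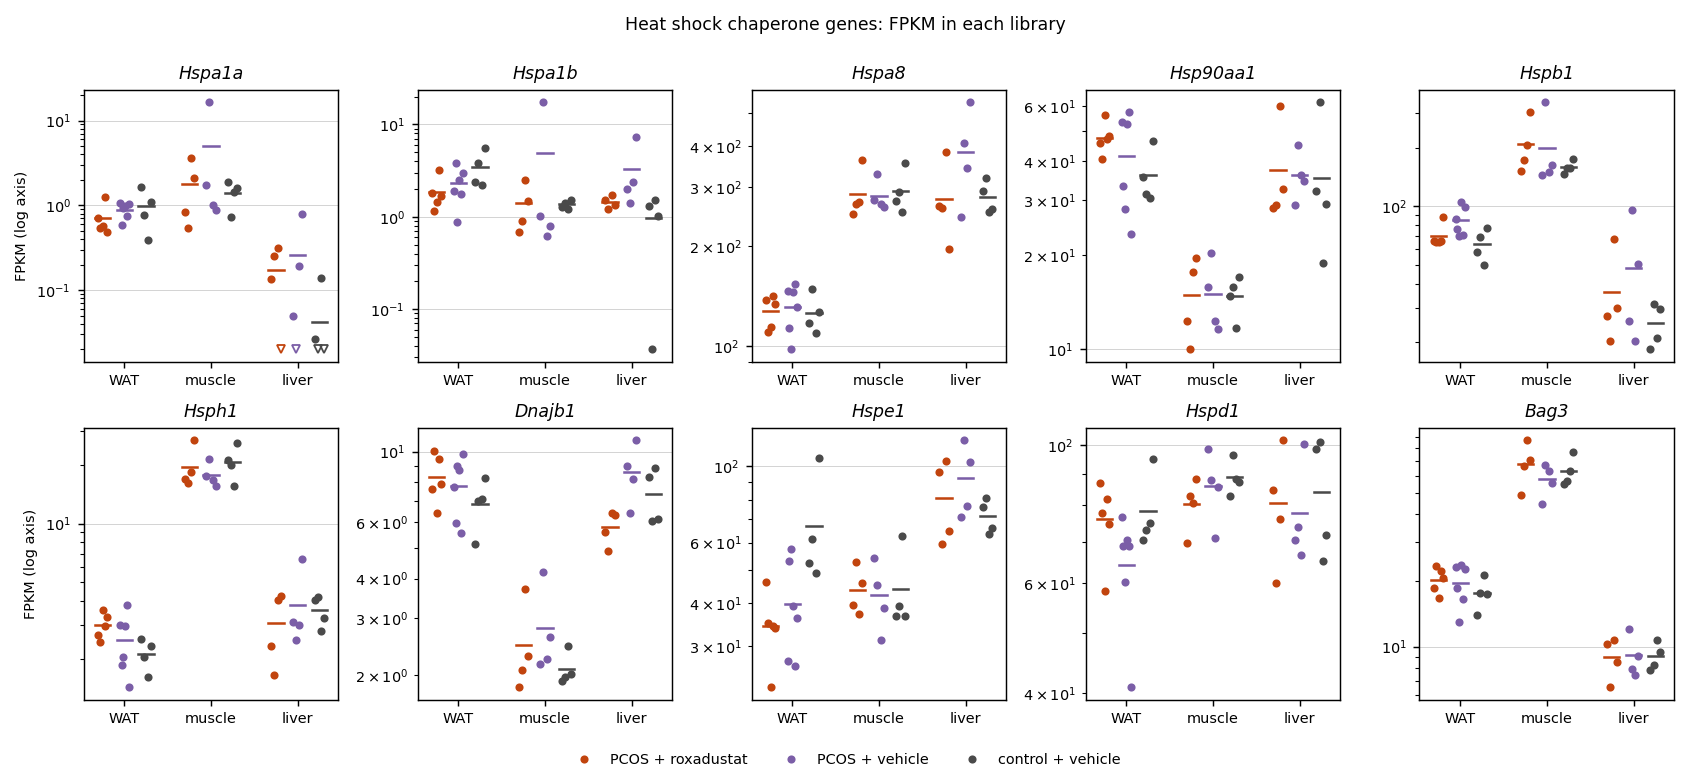
FPKM of each chaperone gene (log axis, 1 panel per gene) in WAT, muscle and liver, with 1 point per library coloured by arm, horizontal bars for the arm means and open triangles for libraries listed at 0. Arms of a tissue lie over each other for nearly every gene, muscle lies above WAT and liver for Hspb1 and Hsph1, all 3 tissues are apart for Bag3, and muscle of mouse 773 and liver of mouse 814 stand above their arms for Hspa1b.

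Muscle held far more Bag3, Hspb1 and Hsph1 RNA than liver, and less Dnajb1, Hsp90aa1 and Hspe1 RNA. This was measured in control + vehicle mice alone, 4 libraries of each tissue, with limma on log2(FPKM + 0.5) and Benjamini-Hochberg adjustment over all genes, where an adjusted p under 0.05 passed the test. The control muscle and liver libraries came from the same mice, and some of these mice also gave control WAT. The main fit treated the tissues as unpaired. Of the 10 members, 7 passed between muscle and liver, 4 higher and 3 lower in muscle, beside 71.3% of all 14118 genes tested (36.5% higher, 34.7% lower). A member passing this test is therefore no rarer event than for other genes, and the sizes carry the description. The same 7 members did not overlap between the tissues, beside 65.4% of all genes.

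Bag3, which hands clients of HSP70 to autophagy, had 55.3, 57.0, 63.1 and 76.9 FPKM in control muscle and 7.81, 8.25, 9.46 and 10.7 FPKM in control liver. The lowest muscle stood far above the highest liver, a mean ratio of 6.97, and the log2 difference was 2.73 ± 0.16 (SE, limma adjusted p = 3.04e-08). Hspb1, the small heat shock protein that caps denatured proteins and binds actin, had 146.8, 156.8, 157.9 and 174.4 FPKM in control muscle and 18.4, 21.0, 29.6 and 31.5 FPKM in control liver. The groups were again far apart, with a log2 difference of 2.67 ± 0.18 (SE, limma adjusted p = 1.71e-07). Hsph1, an HSP110 protein that exchanges nucleotide on HSP70, had 15.6, 20.1, 21.3 and 26.0 FPKM in control muscle and 2.79, 3.27, 4.02 and 4.19 FPKM in control liver. Its log2 difference was 2.38 ± 0.19 (SE, limma adjusted p = 4.68e-07).

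Dnajb1, the J-domain partner of HSP70, had 1.92, 1.97, 2.01 and 2.46 FPKM in control muscle and 6.05, 6.16, 8.35 and 8.89 FPKM in control liver. Every muscle was below every liver, with a log2 difference of -1.59 ± 0.18 (SE, limma adjusted p = 8.95e-06). Hsp90aa1, the inducible form of cytosolic HSP90, had 11.7, 14.8, 15.8 and 17.0 FPKM in control muscle and 18.9, 29.3, 32.1 and 61.8 FPKM in control liver. Its livers spread widely, and the log2 difference was -1.12 ± 0.29 (SE, limma adjusted p = 0.0055). Hspe1, the lid of the mitochondrial chaperonin, had 36.6, 36.8, 39.3 and 62.8 FPKM in control muscle and 63.6, 66.1, 76.3 and 80.6 FPKM in control liver. Muscle of mouse 802 came within 1 FPKM of the lowest liver, and the log2 difference was -0.73 ± 0.19 (SE, limma adjusted p = 0.00493). Hspd1, the chaperonin ring that Hspe1 closes and with which it shares a promoter, averaged 88.7 ± 5.7 FPKM in control muscle and 84.2 ± 18.4 FPKM in control liver (SD, n = 4 each), and did not pass (log2 difference 0.10, limma adjusted p = 0.618).

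Hspa1a had 0.722, 1.42, 1.61 and 1.87 FPKM in control muscle, against 0.140 and 0.0268 FPKM and 2 libraries listed at 0 in control liver, where the counts were 6, 1, 0 and 0 reads. Its log2 difference of 1.78 ± 0.21 (SE, limma adjusted p = 1.40e-05) is set largely by the pseudocount of 0.5 FPKM. Hspa8 averaged 292.4 ± 44.6 FPKM in control muscle and 281.3 ± 31.8 FPKM in control liver, and Hspa1b 1.36 ± 0.13 FPKM in control muscle and 0.967 ± 0.650 FPKM in control liver (SD, n = 4 each). Neither passed, with limma adjusted p values of 0.809 and 0.225.

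WAT held less Hspa8 RNA than both other tissues and, against muscle, much less Hsph1, Bag3 and Hspb1 RNA. Against liver, 6 members passed, 4 higher and 2 lower in WAT, beside 57% of all 14801 genes tested (29.2% higher, 27.8% lower). Against muscle, 7 passed, 3 higher and 4 lower in WAT, beside 68.9% of all 14615 genes tested (35.9% higher, 33% lower). All passing members were free of overlap between the tissues, beside 52.4% of genes against liver and 62.5% against muscle.

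Hspa8 had 109.5, 117.2, 126.9 and 148.3 FPKM in control WAT, 252.2, 272.5, 289.9 and 355.2 FPKM in control muscle and 253.3, 258.1, 292.7 and 321.1 FPKM in control liver. All WAT values were below all values of the other tissues, with log2 differences of -1.22 ± 0.18 against muscle (SE, limma adjusted p = 8.39e-05) and -1.16 ± 0.18 against liver (SE, limma adjusted p = 2.29e-04). With every library set to the same FPKM total, the difference from liver was -0.45 and no longer passed (limma adjusted p = 0.0724). Hsph1 had 1.61, 2.05, 2.35 and 2.55 FPKM in control WAT, a mean of 0.103 times that of control muscle (log2 difference -3.00, limma adjusted p = 8.44e-08). Its smaller log2 difference from liver, -0.62 ± 0.20 (SE, limma adjusted p = 0.0204), was -0.02 with equal FPKM totals and lost its call in 3 of the fits that left out 1 mouse (adjusted p 0.054 to 0.0647).

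Bag3 had 14.0, 17.4, 17.6 and 21.2 FPKM in control WAT, between the other tissues, with log2 differences of -1.82 from muscle and 0.91 from liver (limma adjusted p = 1.90e-06 and 8.96e-04). Hspb1 was likewise intermediate, at 49.9, 58.2, 69.5 and 77.0 FPKM in control WAT, with log2 differences of -1.33 from muscle and 1.34 from liver (limma adjusted p = 2.60e-05 and 2.70e-04). Dnajb1 and Hsp90aa1 went the other way. Dnajb1 averaged 6.88 ± 1.29 FPKM in control WAT and 2.09 ± 0.25 FPKM in control muscle (SD, n = 4 each; log2 difference 1.5, limma adjusted p = 1.03e-05). Hsp90aa1 averaged 36.1 ± 7.3 FPKM in control WAT and 14.8 ± 2.3 FPKM in control muscle (SD, n = 4 each; log2 difference 1.25, limma adjusted p = 5.81e-05). Neither passed between WAT and liver, with log2 differences of -0.09 and 0.13.

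Hspa1b had 2.20, 2.40, 3.86 and 5.51 FPKM in control WAT, 1.23, 1.29, 1.41 and 1.51 FPKM in control muscle and 0.0366, 1.03, 1.30 and 1.5 FPKM in control liver. WAT stood above both, with log2 differences of 1.03 from muscle and 1.53 from liver (limma adjusted p = 0.00282 and 0.00856). Hspa1a averaged 0.976 ± 0.532 FPKM in control WAT (SD, n = 4), with log2 differences of -0.40 from muscle (limma adjusted p = 0.226) and 1.38 from liver (limma adjusted p = 6.29e-04). Hspd1 averaged 78.3 ± 11.2 FPKM in control WAT and passed against neither tissue. Hspe1 averaged 67.0 ± 26.3 FPKM in control WAT and also passed against neither (log2 difference from muscle 0.57, limma adjusted p = 0.0674). The authors' FPKM totals differed between tissues, with a median of 253586 in WAT, 483880 in muscle and 604678 in liver. Setting them equal moved the median log2 difference of all genes to 0.55 for WAT minus liver and to 0.44 for WAT minus muscle, and these tissue differences are to be read against that shift.

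**Figure D2:**
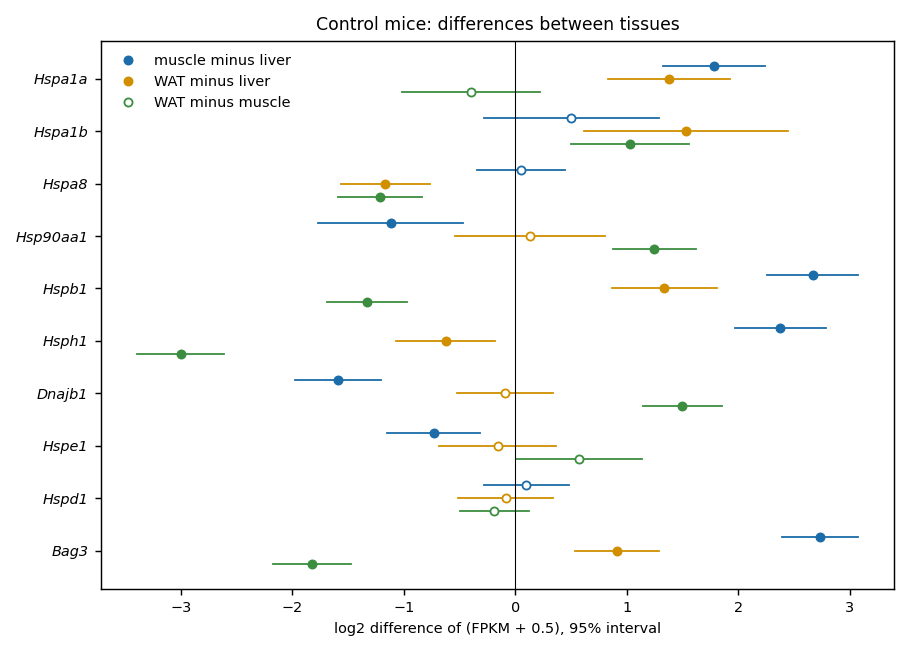
Differences in log2(FPKM + 0.5) between tissues of control + vehicle mice for the 10 genes, with 95% limma intervals, filled where the adjusted p was under 0.05 and open where it was not. Bag3, Hspb1 and Hsph1 lie far to the right for muscle minus liver and to the left for WAT minus muscle, and Hspd1 sits near 0 in all 3 comparisons.

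None of the 10 chaperone genes passed the test between any 2 arms in any tissue. Between PCOS + roxadustat and PCOS + vehicle mice, limma called 0 of 9 members tested in liver, 0 of 10 in muscle and 0 of 10 in WAT, beside 0% of all genes in each tissue (0 of 14015, 0 of 13296 and 0 of 15320). Between PCOS + vehicle and control + vehicle mice, 0 members were called beside 0.82% (liver), 0.104% (muscle) and 0.346% (WAT) of all genes. Between PCOS + roxadustat and control + vehicle mice, 0 members were called beside 0% (liver), 0.349% (muscle) and 5.79% (WAT) of all genes. At an unadjusted p under 0.05 the members counted were Dnajb1 for roxadustat against vehicle in liver, Hspa1b for the PCOS model in liver, Hspe1 for the PCOS model in WAT, and 4 in WAT of PCOS + roxadustat against control mice. Among all genes, in the same order, 411 of 14015, 1573 of 14021, 1883 of 15603 and 4131 of 15499 had such a p. In 8 of the 9 comparisons every member overlapped between the arms, while among all genes the arms did not overlap for these shares of the genes tested. For roxadustat against vehicle they were 1.64% (liver), 1.61% (muscle) and 0.0979% (WAT), for PCOS + vehicle against control 7.09% (liver), 3.78% (muscle) and 3.15% (WAT), and for PCOS + roxadustat against control 4.01% (liver) and 6.24% (muscle). The count-based test voom called 0 members in 8 of these 9 comparisons and 1, Hspe1, in the last. In simulated libraries of the same depth and spread, the test recovered 12% of genes changed 2-fold and 64% of genes changed 4-fold for roxadustat against vehicle in liver. It recovered 59% and 94% in muscle and 36% and 76% in WAT, so a 2-fold change was often not detectable. Comparisons within a tissue share libraries: PCOS + vehicle mice stand in both the roxadustat and the PCOS comparison, and control mice in both comparisons against control.

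**Figure D3:**
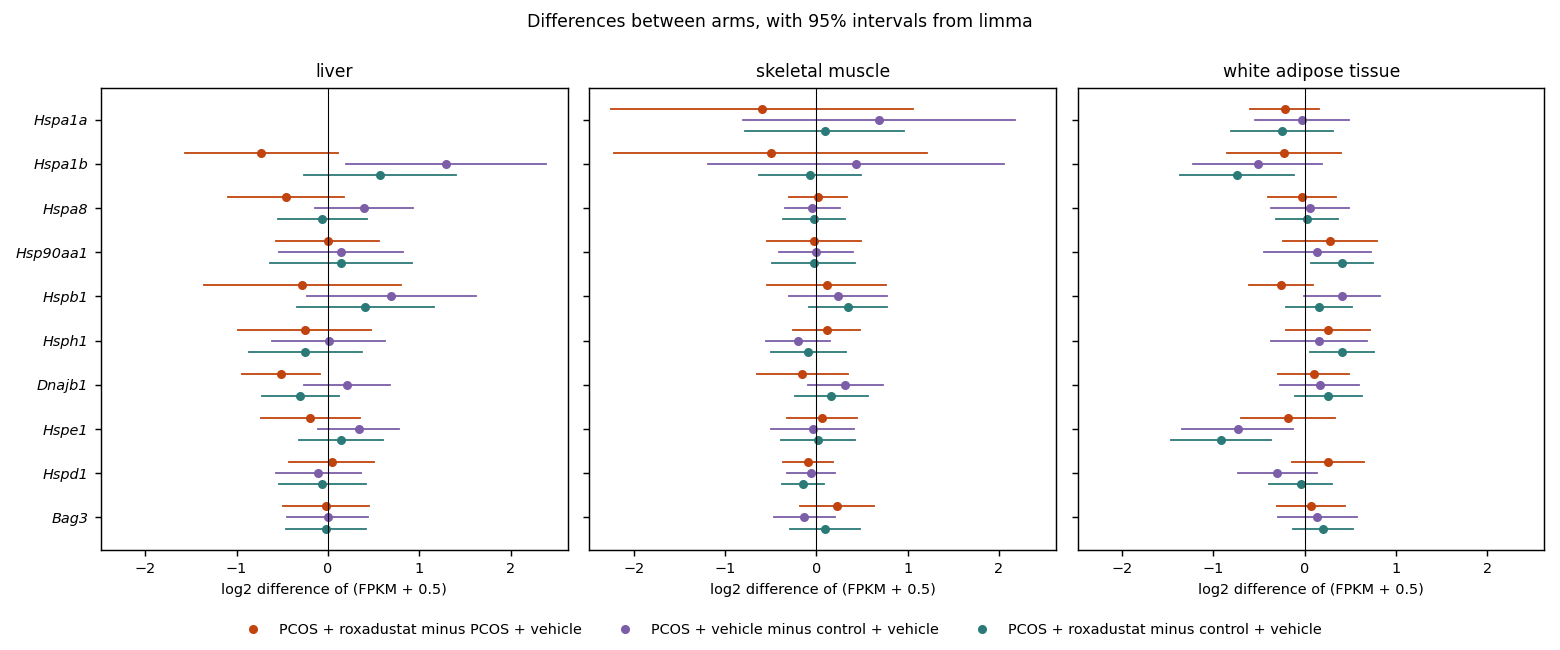
Differences in log2(FPKM + 0.5) between arms for the 10 genes in each tissue, with 95% limma intervals. Intervals are widest for Hspa1a and Hspa1b in muscle and for Hspa1b and Hspb1 in liver, Hspa1a was not tested in liver, and Hspe1 in WAT has the lowest value against control.

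In muscle and liver the inducible HSP70 genes Hspa1a and Hspa1b had larger coefficients of variation than the other members, with the highest value of both genes in 1 library of each tissue. In muscle, Hspa1b had 0.685, 0.895, 1.47 and 2.52 FPKM in PCOS + roxadustat mice, 0.623, 0.788, 1.02 and 17.3 FPKM in PCOS + vehicle mice, and 1.23, 1.29, 1.41 and 1.51 FPKM in control mice. Hspa1a followed, with 0.543, 0.845, 2.08 and 3.65 FPKM in PCOS + roxadustat muscle, 0.888, 1.0, 1.74 and 16.3 FPKM in PCOS + vehicle muscle, and 0.722, 1.42, 1.61 and 1.87 FPKM in control muscle. The highest value of each gene was from the same mouse, 773. Without it, the other 3 PCOS + vehicle muscles lay below every control for Hspa1b and inside the PCOS + roxadustat range but for the lowest, while for Hspa1a they overlapped with both other arms. That library also had the highest Hspb1 (341.3 FPKM), Hsp90aa1 (20.3 FPKM) and Dnajb1 (4.18 FPKM) of all 12 muscles. The log2 difference of PCOS + roxadustat minus PCOS + vehicle muscle was -0.50 ± 0.77 for Hspa1b and -0.60 ± 0.74 for Hspa1a (SE, limma adjusted p = 0.9999 each). Without mouse 773 these values were 0.45 and 0.24, the opposite sign. For PCOS + vehicle minus control muscle, Hspa1b and Hspa1a had 0.43 and 0.69 with that mouse and -0.51 and -0.15 without it.

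Because Hspa1a and Hspa1b share much of their sequence, their summed FPKM is the firmer value: it was 33.6 FPKM from 1026 reads in muscle of mouse 773, against at most 6.17 FPKM in the other muscles. The muscle library of mouse 773 is the one with 136.9 FPKM of hepatocyte markers, and the liver of mouse 773 held 1.4 FPKM of the sum, the eighth of 12. That liver was the highest of 12 for Hspb1 (95.6 FPKM) and Hspe1 (118.7 FPKM). The WAT of mouse 773 had the highest Hspa1b (3.83 FPKM) but the lowest Hspa1a (0.580 FPKM) of the PCOS + vehicle arm. The summed FPKM of 16 immediate early genes, which respond within minutes to handling and to stress, was 157.4 FPKM in muscle of mouse 773 and ranked seventh of 12 muscles. The cause of the high values in this muscle library was not tested.

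In liver the outlying mouse was another. Hspa1b had 1.22, 1.33, 1.53 and 1.73 FPKM in PCOS + roxadustat mice, 1.4, 1.99, 2.39 and 7.36 FPKM in PCOS + vehicle mice, and 0.0366, 1.03, 1.30 and 1.5 FPKM in control mice. The arms overlapped, with PCOS + vehicle mouse 814 on top and control mouse 801 at the bottom with 1 read. The PCOS + vehicle mean was 3.29 ± 2.75 FPKM and the control mean 0.967 ± 0.650 FPKM (SD, n = 4 each). The log2 difference was 1.30 ± 0.50 (SE, 95% interval 0.20 to 2.39) with a limma adjusted p of 0.357. Leaving out mouse 814 gave 0.87 (limma adjusted p = 0.52). Over all 17 alternatives, which include leaving out each library in turn, the log2 difference was 0.87 to 1.90. The liver library of control mouse 801 had the fewest recovered reads (12389970) and the fewest genes with a read (15334) of all livers. In the authors' deposited table, the log2 change of Hspa1b for PCOS + vehicle against control liver was 1.76 with an adjusted p of 0.158. Against PCOS + vehicle liver, PCOS + roxadustat liver had a log2 difference of -0.73 ± 0.38 for Hspa1b (SE, limma adjusted p = 0.9997).

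Liver of mouse 814 also had the highest Hspa8, Hsph1, Dnajb1 and Hspa1a of all 12 livers. Its summed Hspa1a and Hspa1b was 8.16 FPKM from 273 reads, against at most 2.59 FPKM in the other livers, while its muscle held 1.68 FPKM, the ninth of 12. Its immediate early genes summed to 168.8 FPKM, the fifth of 12. Hspa1a itself was at the detection limit in liver, with 0 to 28 reads per library and 4 of 12 libraries at 0, and it failed the filter on low values in every liver comparison of arms. A count of 0 allows up to 3 reads.

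In WAT, Hspa1b had 1.14, 1.43, 1.68, 1.82 and 3.19 FPKM in PCOS + roxadustat mice and 2.20, 2.40, 3.86 and 5.51 FPKM in control mice, and from 0.876 to 3.83 FPKM with a median of 2.20 in PCOS + vehicle mice. Of the roxadustat mice 4 of 5 lay below every control, and mouse 795 lay among them. The log2 difference of PCOS + roxadustat minus control was -0.74 ± 0.28 (SE, limma adjusted p = 0.125). Hspa1a in WAT had 0.482, 0.539, 0.566, 0.703 and 1.24 FPKM in PCOS + roxadustat mice, 0.580 to 1.06 FPKM in PCOS + vehicle mice and 0.395, 0.771, 1.09 and 1.65 FPKM in control mice, with full overlap.

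Hspa8 differed little within WAT and muscle. PCOS + roxadustat, PCOS + vehicle and control means were 127.7 ± 14.2, 131.4 ± 21.7 and 125.5 ± 16.8 FPKM in WAT (SD, n = 5, 6 and 4) and 287.5 ± 51.1, 282.7 ± 30.8 and 292.4 ± 44.6 FPKM in muscle (SD, n = 4 each). In liver it had 195.7, 260.9, 264.6 and 382.6 FPKM in PCOS + roxadustat mice, 244.2, 342.7, 408.3 and 539.5 FPKM in PCOS + vehicle mice, and 253.3, 258.1, 292.7 and 321.1 FPKM in control mice. PCOS + vehicle livers held 2 values above all others, but the arms overlapped and the log2 difference of PCOS + roxadustat minus PCOS + vehicle was -0.46 ± 0.29 (SE, limma adjusted p = 0.9997).

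Among the partners of HSP70, Dnajb1 in liver came nearest to a difference between roxadustat and vehicle. It had 4.88, 5.61, 6.35 and 6.43 FPKM in PCOS + roxadustat mice, 6.42, 8.22, 9.01 and 10.8 FPKM in PCOS + vehicle mice, and 6.05, 6.16, 8.35 and 8.89 FPKM in control mice. The roxadustat and vehicle groups only just overlapped, with the highest roxadustat liver barely above the lowest vehicle liver. Means were 5.82 ± 0.73 FPKM in PCOS + roxadustat and 8.62 ± 1.83 FPKM in PCOS + vehicle liver (SD, n = 4 each). The log2 difference was -0.52 ± 0.19 (SE, 95% interval -0.94 to -0.09) with a limma adjusted p of 0.9997. In the liver, 8 of the 9 tested members had a lower fitted level in PCOS + roxadustat than in PCOS + vehicle mice, with a median log2 difference of -0.26 beside 0.00 over all genes, and none of these differences passed. Those of Hsp90aa1 (-0.0018) and Bag3 (-0.019) were near 0 and changed sign in 9 and 5 of 17 alternatives. The members share libraries: vehicle mouse 814 was the highest liver for 5 members and roxadustat mouse 782 the lowest for 5. In muscle and in WAT, 5 of 10 members each were lower.

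Dnajb1 in muscle had 1.83, 2.07, 2.29 and 3.70 FPKM in PCOS + roxadustat mice, 2.16, 2.23, 2.63 and 4.18 FPKM in PCOS + vehicle mice, and 1.92, 1.97, 2.01 and 2.46 FPKM in control mice. The highest roxadustat muscle was that of mouse 795, which was also the highest roxadustat muscle for Hspa1a, Hspa1b and Bag3. Hsph1 averaged 19.6 ± 4.9 FPKM in PCOS + roxadustat, 17.8 ± 2.6 FPKM in PCOS + vehicle and 20.8 ± 4.3 FPKM in control muscle (SD, n = 4 each). Bag3 averaged 68.2 ± 15.5 FPKM in PCOS + roxadustat, 57.8 ± 9.9 FPKM in PCOS + vehicle and 63.1 ± 9.8 FPKM in control muscle, and no muscle comparison of these genes passed.

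In WAT, Hsph1 and Hsp90aa1 shared a graded order of means that stayed below the threshold. Hsph1 had 2.46, 2.67, 2.96, 3.30 and 3.60 FPKM in PCOS + roxadustat mice and 1.61, 2.05, 2.35 and 2.55 FPKM in control mice, and 1.43 to 3.82 FPKM with a median of 2.51 in PCOS + vehicle mice. Hsp90aa1 had 40.8, 45.8, 47.2, 48.3 and 56.4 FPKM in PCOS + roxadustat mice and 30.5, 31.5, 35.7 and 46.5 FPKM in control mice, and 23.4 to 57.5 FPKM with a median of 43.1 in PCOS + vehicle mice. For each gene 1 control mouse reached into the roxadustat range, and the vehicle mice spanned both groups. The log2 differences of PCOS + roxadustat minus control were 0.41 ± 0.16 for both genes (SE, limma adjusted p = 0.132 for Hsph1 and 0.122 for Hsp90aa1). Bag3 in WAT averaged 20.2 ± 2.7 FPKM in PCOS + roxadustat (n = 5), 19.5 ± 4.3 FPKM in PCOS + vehicle (n = 6) and 17.5 ± 3.0 FPKM in control mice (SD, n = 4), with overlap throughout.

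Hspb1 varied more between mice in liver and muscle than in WAT. In liver it had 20.4, 27.4, 30.1 and 68.0 FPKM in PCOS + roxadustat mice, 20.3, 25.6, 50.6 and 95.6 FPKM in PCOS + vehicle mice, and 18.4, 21.0, 29.6 and 31.5 FPKM in control mice. Each letrozole arm held at least 1 liver above every control, and the rest overlapped with the controls. In muscle it had 152.6, 172.8, 206.8 and 305.3 FPKM in PCOS + roxadustat mice, 145.6, 150.3, 162.9 and 341.3 FPKM in PCOS + vehicle mice, and 146.8, 156.8, 157.9 and 174.4 FPKM in control mice. Against PCOS + vehicle muscle the log2 difference of PCOS + roxadustat muscle was 0.11 with mouse 773 and 0.40 without it, and neither passed. The log2 difference of PCOS + roxadustat minus control muscle was 0.35 ± 0.19 (SE, limma adjusted p = 0.519). In WAT it had 65.4, 65.6, 66.4, 66.4 and 88.4 FPKM in PCOS + roxadustat mice, 70.4 to 105.2 FPKM with a median of 81.0 in PCOS + vehicle mice, and 49.9, 58.2, 69.5 and 77.0 FPKM in control mice. Of the roxadustat mice 4 of 5 lay below every vehicle mouse, and mouse 809 lay among them (log2 difference -0.26 ± 0.16, SE, limma adjusted p = 1).

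Of the mitochondrial chaperonin pair, Hspe1 in WAT came nearest to passing of all members, with lower means in both letrozole arms than in control mice, while Hspd1 overlapped throughout. Hspe1 had 22.8, 33.9, 34.2, 35 and 46.0 FPKM in PCOS + roxadustat mice, 26.2 to 57.4 FPKM with a median of 37.8 in PCOS + vehicle mice, and 48.9, 52.2, 61.3 and 105.6 FPKM in control mice. Every roxadustat mouse lay below every control. Counted in either direction, these arms did not overlap for 1 of 10 members and for 12.3% of all genes. Means were 34.4 ± 8.2 FPKM in PCOS + roxadustat (n = 5), 39.9 ± 12.9 FPKM in PCOS + vehicle (n = 6) and 67.0 ± 26.3 FPKM in control WAT (SD, n = 4). The log2 difference of PCOS + roxadustat minus control was -0.92 ± 0.25 (SE, 95% interval -1.47 to -0.37, limma adjusted p = 0.0539). Over the alternatives its adjusted p was 0.0136 to 0.119 and its log2 difference -1.04 to -0.51. For PCOS + vehicle minus control it was -0.73 ± 0.28 (SE, limma adjusted p = 0.321), and in the authors' deposited table the log2 change was -0.78 with an adjusted p of 0.203. Hspd1 had 58.3, 74.6, 77.9, 81.9 and 87.0 FPKM in PCOS + roxadustat mice, 40.8 to 76.6 FPKM with a median of 68.8 in PCOS + vehicle mice and 70.4, 73.0, 75.0 and 94.9 FPKM in control mice, with overlap. Control mouse 802 had the highest WAT value of both genes.

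The WAT control libraries differed from the others in their cell markers, which stands beside each WAT comparison against control. The 10 mesothelial and ovarian markers summed to 8.67 to 21.3 FPKM in PCOS + roxadustat, 7.31 to 17.7 FPKM in PCOS + vehicle and 31.3 to 69.4 FPKM in control WAT, and 6 of the 10 fell in PCOS + roxadustat against control. The macrophage markers summed to 204.5 to 910.1 FPKM in PCOS + roxadustat, 196.7 to 389.6 FPKM in PCOS + vehicle and 123.7 to 187.8 FPKM in control WAT, and Cd68 and Marco of the 9 tested rose. The adipocyte markers summed to 5985 to 19030 FPKM in PCOS + roxadustat, 7080 to 41640 FPKM in PCOS + vehicle and 16250 to 22250 FPKM in control WAT. The part of these cells in the Hspe1, Hspa1b, Hsph1 and Hsp90aa1 values was not tested.

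In liver and muscle the chaperonin pair did not separate the arms. Hspe1 averaged 43.7 ± 7.0, 42.3 ± 9.6 and 43.9 ± 12.7 FPKM in muscle and 81.0 ± 22.1, 92.3 ± 22.5 and 71.6 ± 8.1 FPKM in liver of PCOS + roxadustat, PCOS + vehicle and control mice (SD, n = 4 each). Hspd1 averaged 80.3 ± 7.8, 85.8 ± 11.3 and 88.7 ± 5.7 FPKM in muscle and 80.6 ± 17.4, 77.9 ± 15.4 and 84.2 ± 18.4 FPKM in liver of PCOS + roxadustat, PCOS + vehicle and control mice. Hsp90aa1 in liver had 28.4, 29.0, 32.7 and 60.3 FPKM in PCOS + roxadustat mice, 29.0, 34.7, 36.2 and 45 FPKM in PCOS + vehicle mice, and 18.9, 29.3, 32.1 and 61.8 FPKM in control mice. Roxadustat mouse 795 and control mouse 801 stood high at nearly the same level. Bag3 in liver had the closest means of the set, 9.0 ± 1.90, 9.12 ± 2.07 and 9.05 ± 1.30 FPKM in PCOS + roxadustat, PCOS + vehicle and control mice (SD, n = 4 each), with an interval of -0.49 to 0.45 for the log2 difference of roxadustat minus vehicle.

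Whether the response differed between tissues was tested with the interaction of tissue and arm. For PCOS + roxadustat against PCOS + vehicle, limma called 0 members and 0% of all genes in each pair of tissues. For PCOS + vehicle against control, 0 members were called beside 0.503% of genes for muscle minus liver, 0.755% for WAT minus liver and 0.154% for WAT minus muscle. The largest member values were those of WAT minus liver in the PCOS comparison, where Hspa1b had a log2 difference of -1.81 ± 0.62 (SE, limma adjusted p = 0.188) and Hspe1 one of -1.07 ± 0.37 (SE, limma adjusted p = 0.194). In the roxadustat comparison, WAT minus liver gave 0.61 for Dnajb1 (limma adjusted p = 0.9999), and these 3 were the members with an unadjusted p under 0.05 in these 6 tests. For WAT minus liver, 2360 of 16418 genes had such a p in the PCOS comparison and 337 of 16540 in the roxadustat comparison.

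More pairs of chaperone genes were correlated above 0 than below it over the mice of a tissue, and no difference between tissues was tested. After subtracting each arm's mean, the Pearson correlation of log2(FPKM + 0.5) was above 0 for 33 of 45 member pairs in WAT (median r 0.163, 15 libraries), 40 of 45 in muscle (median 0.490, 12 libraries) and 35 of 45 in liver (median 0.267, 12 libraries). The members of a library share its depth and its scaling, and pairs that share a gene are not independent. How often pairs of other genes lie above 0 was not tested, so these counts only describe the members. By r with Dnajb1 in muscle, the other members ranked from 37 (Hspa1a, r = 0.818) to 3260 (Hspe1, r = 0.0868) among 9467 genes. Without mice 773 and 795 the r of Hspa1a with Dnajb1 in muscle was 0.417. Hspa1a averaged under 1 FPKM in WAT and liver and was not ranked there. The remaining members ranked from 2462 (Bag3, r = 0.482) to 8743 (Hsph1, r = -0.506) among 10125 genes in WAT. In liver they ranked from 33 (Hspa1b, r = 0.769) to 8201 (Hsp90aa1, r = -0.34) among 9762 genes. Over the 45 pairs of all 3 tissues, tested with permutations within arms, 22 had an unadjusted p under 0.05 (2 in WAT, 12 in muscle and 8 in liver), and after adjustment over all these tests only Hsp90aa1 with Hsph1 passed, in WAT and in muscle. In WAT their r was 0.912 (permutation p = 4e-04, adjusted p = 0.027) and Spearman's rho 0.946 (p = 0.00012, adjusted p = 0.0162), and r was 0.838 without the 2 libraries farthest from the median. In muscle r was 0.840 (exact permutation p = 0.000362, adjusted p = 0.027), rho 0.853 (p = 0.00094, adjusted p = 0.0634), and r 0.817 without the 2 farthest libraries. With equal FPKM totals the pair passed in WAT (r = 0.939, permutation adjusted p = 0.0027) and missed the threshold in muscle (r = 0.854, permutation adjusted p = 0.0504). Hspa8 with Hsph1 in muscle (r = 0.945, permutation adjusted p = 0.0244) and Hspa1b with Dnajb1 in liver (r = 0.814, permutation adjusted p = 0.0358) then passed. Hsp90aa1 with Hsph1 in liver had an r of 0.383 as deposited (exact permutation p = 0.187, adjusted p = 0.495).

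The neighbours Hspa1a and Hspa1b had an r of 0.943 in muscle (exact permutation p = 0.00738, adjusted p = 0.125), which was 0.781 without mice 773 and 795. In liver their r of 0.724 (exact permutation p = 0.00434, adjusted p = 0.104) was 0.383 without the 2 farthest libraries, and in WAT r was 0.220. Hspa8 with Hsph1 reached 0.945 in muscle (exact permutation p = 0.00181, adjusted p = 0.0814). Hspe1 and Hspd1, for all their shared promoter, had an r of 0.321 in WAT, 0.580 in muscle and 0.416 in liver, none of which passed. Across tissues of the same mouse, 0 of 30 correlations passed after adjustment. The 1 with an unadjusted p under 0.05 was Hspa1b in WAT and muscle (r = 0.741 over 9 mice, exact permutation p = 0.0139, adjusted p = 0.417, rho 0.617), which was 0.367 without the 2 farthest mice. With equal FPKM totals 0 of 30 passed as well, but Hspd1 in WAT and muscle had an r of 0.833 (exact permutation p = 0.0417, adjusted p = 0.411), against 0.304 as deposited. Hsp90aa1 in muscle and liver then had an r of 0.613 (exact permutation p = 0.0463, adjusted p = 0.411).

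**Figure D4:**
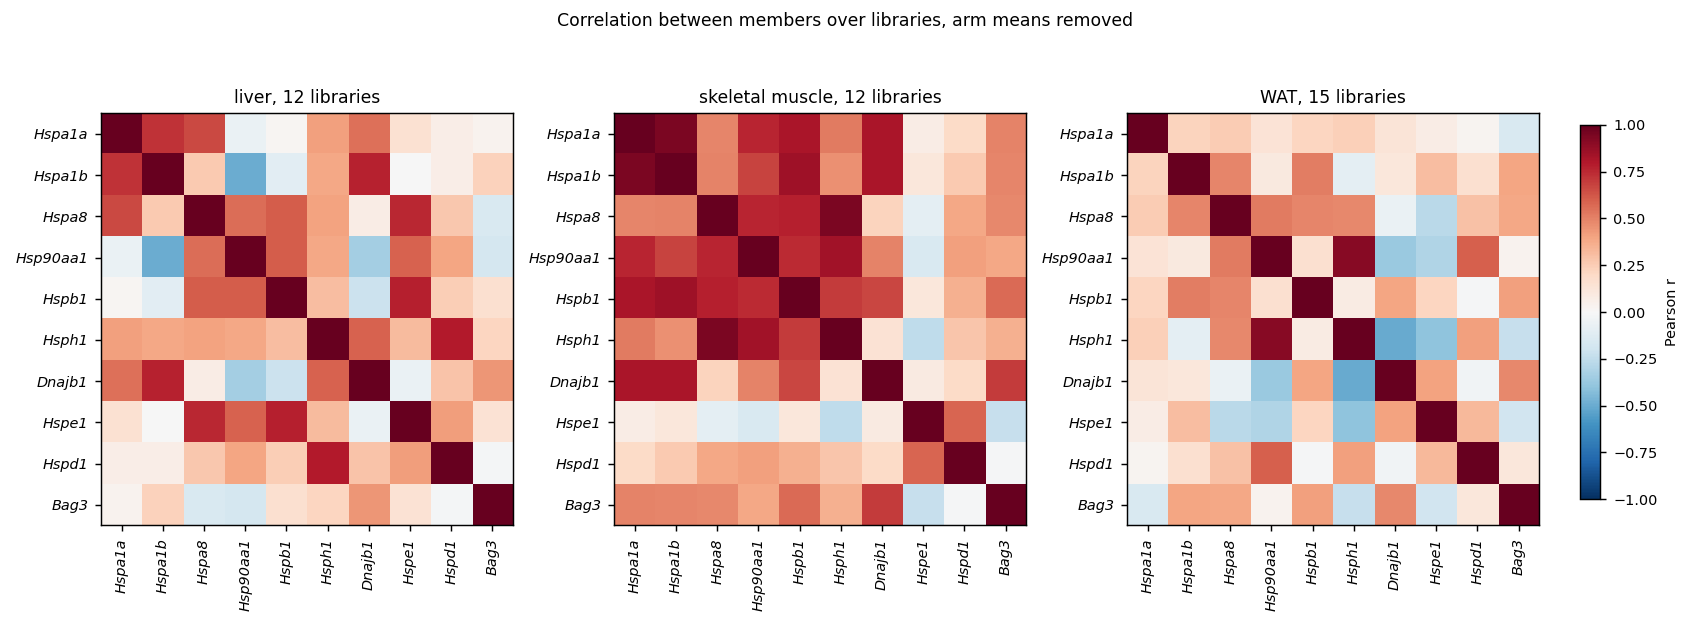
Pearson correlation of log2(FPKM + 0.5) between each 2 of the 10 genes over the libraries of a tissue, after removing the mean of each arm, on a colour scale of -1 to 1. In muscle the values among Hspa1a, Hspa1b, Hspa8, Hsp90aa1, Hspb1 and Hsph1 run from 0.460 to 0.945, and Hsp90aa1 with Hsph1 is high in WAT (0.912) and muscle (0.840).

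Relative to genes of at least 1 FPKM, whose median coefficient of variation was 27.8% in WAT, 16.4% in muscle and 27.1% in liver, the inducible HSP70 genes lay above that median and Hspd1 below it in each tissue, and its partner Hspe1 lay above it in WAT and muscle. Hspa1b had a coefficient of variation of 49.6% in WAT, 182% in muscle and 95.2% in liver, and Hspa1a of 39.5%, 160% and 143%. Hspd1 had 17.6%, 10.1% and 19.4%, Hspe1 45.1%, 21.0% and 23.4%, and Hspb1 19.9%, 34.4% and 64.4% in the same tissues. Hspa1a averaged 0.850 FPKM in WAT and 0.159 FPKM in liver, below the 1 FPKM of the reference genes. Its values in WAT and liver are therefore not set beside genes of a like level, and counting error is part of them. The genes annotated as protein-coding whose mouse-to-mouse pattern was most like that of Dnajb1 were Klhdc2 (r = 0.947), Triap1 (0.926) and Rgcc (0.925) in WAT over 15 libraries. In muscle over 12 libraries they were Lpl (0.940), Alpl (0.906) and Rcan1 (0.901), and in liver over 12 libraries Hmgn2-ps (0.924), Cox11 (0.913) and Hmox1 (0.889). For Hspd1 they were Phyh (0.892), Mrpl50 (0.879) and Lias (0.876) in WAT, and Srsf1 (0.923), Rps19bp1 (0.907) and Rmdn3 (0.895) in muscle. They were the highest among 10117 genes in WAT, 9458 in muscle and 9754 in liver and are given as a description.

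The wider chaperone network was called about as often as all genes in WAT of PCOS + roxadustat against control mice. It was taken as 97 genes in 10 lists (heat shock factors, other HSP70 and HSP110, J-domain, HSP90 and HSP70 co-chaperones, small heat shock, chaperonin TRiC, mitochondrial, endoplasmic reticulum and other heat-inducible genes). There limma called 4 higher and 1 lower of 92 tested (5.43%), beside 5.79% of all genes, and in the other 8 comparisons of arms 0 were called. Hspa5, the HSP70 of the endoplasmic reticulum, rose to 56.2 ± 6.6 FPKM in PCOS + roxadustat (n = 5), against 32.6 ± 3.3 FPKM in control WAT (SD, n = 4; log2 difference 0.77, limma adjusted p = 0.0177). Hyou1, its HSP110 partner there, rose to 6.24 ± 1.26 FPKM in PCOS + roxadustat against 3.77 ± 0.55 FPKM in control WAT (log2 difference 0.65, limma adjusted p = 0.0432), and they were the 2 called of 14 endoplasmic reticulum genes. Hspa4, a cytosolic HSP110 relative of Hsph1, rose to 20.1 ± 1.2 FPKM in PCOS + roxadustat against 14.6 ± 1.4 FPKM in control WAT (log2 difference 0.45, limma adjusted p = 0.0432). Hspb6, a small heat shock protein, rose to 12.9 ± 3.4 FPKM in PCOS + roxadustat against 5.60 ± 2.47 FPKM in control WAT (log2 difference 1.18, limma adjusted p = 0.0352). Cirbp, a cold-induced RNA-binding protein that was in the list of other heat-inducible genes, fell to 11.7 ± 2.6 FPKM in PCOS + roxadustat against 19.7 ± 1.4 FPKM in control WAT (log2 difference -0.75, limma adjusted p = 0.0291). Roxadustat against vehicle called 0 of these genes in WAT, and the cell markers that differ from control are those given above.

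Between tissues of control mice, the calls of the network by direction are given beside those of all genes. Its calls leaned to higher in muscle against liver and to lower in WAT against muscle, while those of all genes were split nearly evenly. In muscle against liver, 46 genes were higher and 23 lower of 94 tested (73.4%, beside 71.3% of all genes). Of all genes, 36.5% were higher and 34.7% lower in muscle. All 5 small heat shock genes tested were higher and 13 of 14 endoplasmic reticulum chaperones were lower in muscle. In WAT against muscle, 23 were higher and 53 lower of 95 tested (80%, beside 68.9% of all genes). Of all genes, 35.9% were higher and 33% lower in WAT. All 6 small heat shock genes, 11 of 13 HSP90 genes and co-chaperones and 7 of 8 TRiC subunits were lower in WAT. In WAT against liver, 23 were higher and 28 lower of 93 tested (54.8%, beside 57% of all genes), with 13 of 14 endoplasmic reticulum chaperones lower in WAT. Of all genes, 29.2% were higher and 27.8% lower in WAT than in liver. These genes were named after their values were seen: Cryab, the small heat shock protein of muscle and lens, averaged 456.6 FPKM in control muscle and 3.14 FPKM in control liver. Unc45b, the co-chaperone that folds myosin with HSP90, averaged 6.35 FPKM in control WAT, 101.9 FPKM in control muscle and 0.813 FPKM in control liver. Hsf1, the heat shock factor itself, averaged 2.36 FPKM in control WAT and 8.28 FPKM in control muscle (log2 difference -1.62).

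Several members share sequence with close copies, so the split of their reads is uncertain. Of all 100-base windows of the transcripts, 49.9% of Hspa1b also occurred in Hspa1a, and 47.1% of Hspa1a in Hspa1b. Shared windows made up 63.4% of Hspa8, 47.5% of Hsp90aa1, 42.7% of Hspb1, 26.9% of Hspd1 and 22.4% of Hspe1, and 0% of Hsph1, Dnajb1 and Bag3. The pseudogene Hspd1-ps3 averaged 4.08 FPKM in WAT, 3.82 in muscle and 2.58 in liver. Hspd1-ps4 averaged 11.5 FPKM in WAT, where it took 463.3 reads per library against 4575 for Hspd1, and 0.0841 FPKM in muscle and 0.154 FPKM in liver.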

How the data were processed

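RNA from 39 libraries (300 ng of total RNA each, poly-A selected, per the labels' protocols) had been processed before deposit with CASAVA 1.8, HISAT2 2.0.5 on mm39 and DESeq2 1.20.0, per the submitters' processing notes. The authors deposited 6 tables of FPKM per gene, 2 for each tissue, with their own log2 fold changes and p-values in other columns. Whether the libraries kept strand, and over which libraries the FPKM scaling was set, is not given in the sources used here. Each library's FPKM values were whole multiples of 1 read for 100% of values within 0.001, so whole reads were recovered to give depth and a count-based alternative. No per-sample column lacked a sample (0).

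Genes needed 10 reads, scaled to the median depth, in a number of libraries equal to the smaller group, and 15 reads in all. They were tested with limma 3.58.1 (R 4.3.3) with a trend on log2(FPKM + 0.5), each pair of groups alone. The Benjamini-Hochberg adjustment ran over all genes of a comparison. PCOS + roxadustat against control used genes listed in both tables of a tissue. Within a tissue, each library is a separate mouse. The test was tried on simulated data with 200 changed genes. Mouse numbers are shared between tissues, and deviations of the same mouse had a median correlation of -0.0126 for muscle and liver (12 mice), 0.0801 for WAT and liver (9 mice) and -0.0254 for WAT and muscle (9 mice). Correlations used permutation within arms, enumerated in liver and muscle and with 100000 resamples in WAT (SciPy 1.17.1). Intervals and the limit of 3 reads for a count of 0 cover counting error or the spread between mice only. Alternatives were pseudocounts of 0.1 and 1, no filter or a mean of at least 1 FPKM, equal FPKM totals, quantile scaling, voom, array weights, all 3 arms in 1 fit, mouse as a block, and leaving out each library.

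The members and all gene lists were chosen with earlier results of these data known. Named genes were the 10 members, list genes that passed between arms (at most 4 per list and comparison), the 3 genes most like Dnajb1 and like Hspd1 (for Hspd1 in liver, not reported here), member pseudogenes and tissue markers. Promoter windows came from RefSeq on GRCm38.p6, another build than mm39, and no coordinates were carried between them.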

Additional observations from a re-analysis of the deposited data

Results flagged for a closer look

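In 9 of 90 groups of member values, 1 library lay far from the rest of its group by Dixon's 95% value, where chance flags about 1 in 20 groups, and members of a library are not independent. Muscle of PCOS + vehicle mouse 773 gave 3 of them, with 16.3 FPKM of Hspa1a (others 0.888 to 1.74), 17.3 FPKM of Hspa1b (others 0.623 to 1.02) and 341.3 FPKM of Hspb1 (others 145.6 to 162.9). Liver of PCOS + vehicle mouse 814 gave 2, with 7.36 FPKM of Hspa1b (others 1.4 to 2.39) and 6.57 FPKM of Hsph1 (others 2.51 to 3.12). Liver of PCOS + roxadustat mouse 795 had 60.3 FPKM of Hsp90aa1 (others 28.4 to 32.7). Muscle of control mouse 802 had 2.46 FPKM of Dnajb1 (others 1.92 to 2.01) and 62.8 FPKM of Hspe1 (others 36.6 to 39.3). WAT of PCOS + roxadustat mouse 809 had 88.4 FPKM of Hspb1 (others 65.4 to 66.4).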

How the results depend on the processing

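Of the 87 values of members between arms, 46 changed sign in at least 1 alternative, none of them called in either, and 6 were called in an alternative, all in WAT of PCOS + roxadustat against control. There 5 members were called with equal FPKM totals (Hsp90aa1, Hspb1, Hsph1, Dnajb1 and Bag3, all higher, where the median log2 difference of all genes was 0.31 and 3626 genes were called, against 897). Quantile scaling called 1 (Hspe1, -0.78), voom 1 (Hspe1, -0.81) and array weights 2 (Hspe1 and Hsp90aa1), and leaving out 1 library called 0 to 1 (Hspe1, -1.03, limma adjusted p = 0.0287 without roxadustat mouse 764). Every other comparison of arms called 0 members in each alternative. Between tissues of control mice, WAT minus liver reversed for Dnajb1 (0.57), Hspe1 (0.55) and Hspd1 (0.62) with equal totals, whose median over all genes was 0.55, and for Hspd1 (0.49) with quantile scaling. Over all alternatives 6 to 8 members were called for muscle minus liver, 5 to 8 for WAT minus liver and 7 to 8 for WAT minus muscle, and leaving out 1 library gave 7, 5 to 6 and 7 to 8. For muscle minus liver the limma adjusted p of Hspe1 rose to 0.0638 in an alternative. There Hspa8 and Hspd1, not called in the main fit, reached log2 differences up to 0.745 and 0.53 and limma adjusted p values down to 0.00252 and 0.00833. Mouse as a replicate block called 7, 6 and 7 members and 0 in each interaction, so the pairing changed no call. With equal totals 3 pairs of members passed by Pearson's r in place of 2, and 1 of them, Hsp90aa1 with Hsph1 in WAT, passed in both. The cause of each change was not tested.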
